A study of Mus musculus with 12 samples.

Results

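The genes described here carry out or control the synthesis of sterols and fatty acids. A list of 33 genes was fixed by name: regulators of the SREBP transcription factors, enzymes of the mevalonate pathway, enzymes from squalene to cholesterol, a sterol transfer protein, and enzymes that make, elongate and desaturate fatty acids. Of these, 32 had a probe set annotated to 1 gene symbol, among 18194 such genes, and each was represented by its brightest probe set. Acat2 was not analysed here. Scd1, a stearoyl-CoA desaturase, had a mean intensity of 5.79, under the minimum of 7.7 (the 40th percentile of all probe sets), which left 31 members among the 12573 genes tested.

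RNA was measured on 12 Affymetrix arrays, 3 for each of 4 groups of mouse leukemia: Rictor-deleted MLL-NRIP3, Rictor-deleted MLL-AF9, control MLL-NRIP3 and control MLL-AF9. MLL-NRIP3 and MLL-AF9 are fusions of the MLL gene that drive leukemia, the deleted groups are labelled RictorΔ/Δ, and the controls are labelled Rictor wild type. Rictor is an essential subunit of the kinase complex mTORC2. All cells were sorted as K+G- bone marrow cells, letters that the labels do not spell out, after the first transplantation, from recipients with over 50% CD45.2+ cells among the white cells of the blood. The study set out to find molecular events downstream of Rictor in leukemia driven by MLL-AF9, and used MLL-NRIP3 as a further model. The labels give no strain, age or sex, no Cre driver, and no CD45.2 gate in the sort, so cells of the recipients may be among those sorted. Nor do they say that the arrays within a group stem from different animals, so the spread behind each p-value is that of these arrays and may be technical.

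As background, SREBP transcription factors are held in the endoplasmic reticulum by Scap and Insig proteins while sterols are plentiful. When sterols fall, Scap escorts SREBP to the Golgi, where proteases release the active factor, and it switches on sterol and fatty acid synthesis genes together. SREBP-2, from Srebf2, acts mainly on sterol genes and SREBP-1c, from Srebf1, mainly on fatty acid genes, and mTOR signalling promotes SREBP activity in several cell types. Growing leukemia cells use both pathways to build membranes.

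Several features of the arrays bear on every result. The median deposited intensity was 13.6 to 14.2 on the MLL-NRIP3 arrays and 8.16 to 8.36 on the MLL-AF9 arrays, so the models were compared after quantile normalization of all arrays, and within a model the deposited values were used. The fusion cannot be told apart from a separate normalization or batch of each model. The Rictor probe set used averaged 87.5 ± 9.26 in Rictor-deleted and 86.8 ± 4.8 in control MLL-AF9 arrays, and 104 ± 18.6 in Rictor-deleted and 113 ± 26 in control MLL-NRIP3 arrays (SD, n = 3 each), so it did not show the deletion, and where in the gene it lies was not examined. Of the other Rictor probe sets, 2 were lower in Rictor-deleted MLL-AF9 leukemia, at 25.3 ± 1.1 against 30.9 ± 1.84 and at 16.5 ± 2.52 against 21.9 ± 1.13 in controls. Another went the other way, at 11.1 ± 0.943 in Rictor-deleted and 8.79 ± 2.15 in control MLL-AF9 arrays, and at 113 ± 44.8 in Rictor-deleted and 49.7 ± 14.8 in control MLL-NRIP3 arrays (SD, n = 3 each). Genotype and sex coincided in MLL-AF9 leukemia: Xist, from the inactive X chromosome, averaged 98.5 ± 95 in Rictor-deleted and 2390 ± 48.5 in control arrays, and was high on all MLL-NRIP3 arrays. Sex therefore cannot be told apart from the fusion in the comparison of the Rictor-deleted models, nor from genotype in the test of the responses. The comparison of the control models does not have this difference of sex. Markers of mature neutrophils summed to a quantile-normalized intensity of 1390 to 1840 in Rictor-deleted MLL-NRIP3 arrays, 35500 to 38000 in Rictor-deleted MLL-AF9 arrays, 4210 to 19000 in control MLL-NRIP3 arrays and 11000 to 15900 in control MLL-AF9 arrays (13 genes, none at 0). B lineage markers (7 genes, none at 0) summed to 73.2 to 113, 1510 to 1710, 202 to 1010 and 1840 to 2070 in these groups. In such bulk samples, fewer cells of a type and less RNA per cell cannot be told apart. MLL-NRIP3 control arrays 1 and 2 stood apart in the hybridization control probe sets (mean log2 11.22 and 10.62, against 9.05 to 9.59 on the other arrays), and the counts and the single members that move most without them are given below.

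Most sterol and fatty acid synthesis genes were higher in MLL-NRIP3 than in MLL-AF9 leukemia. With Rictor deleted, 20 of 31 members (64.5%) were higher and 0 were lower at an adjusted p under 0.05 (limma), where 31.1% of all genes tested were higher and 22.3% lower (53.4% either way). By unadjusted p under 0.05, 20 members passed. Hmgcs1 had the largest p of these and ranked 6714, so at least 6714 of the 12573 genes passed as well, in either direction. Cyp51 and Elovl6, which are among those called, and Fads2, which is not, averaged under the minimum of 7.7 over the MLL-AF9 arrays and were tested only because of their MLL-NRIP3 intensities, so a difference of Cyp51 and Elovl6 was built into their being tested. In control leukemia 21 members (67.7%) were higher and 1, Ebp, was lower, where 29.4% of all genes were higher and 21.6% lower (51% either way). The median log2 difference of the members was 0.56 with Rictor deleted and 0.68 in controls, and that of all genes was 0.05 in both. The 3 MLL-NRIP3 arrays all lay above the 3 MLL-AF9 arrays for 21 members in Rictor-deleted leukemia (37.2% of all genes) and for 21 members in control leukemia (33.7% of all genes). They all lay below for 1 member in each (27.9% and 24.6% of all genes, making 65.1% and 58.2% either way), Fdps with Rictor deleted and Ebp in controls. On the deposited values Fdps lay the other way, with 366, 346 and 326 on the Rictor-deleted MLL-NRIP3 arrays, against 322, 266 and 261 on the Rictor-deleted MLL-AF9 arrays. Of the members called higher, 17 were shared by the comparisons in Rictor-deleted and in control leukemia, 85% of the 20 and 81% of the 21. The shared part of all genes called higher was not computed, so these percentages are not shown to be particular to the members. The comparisons use different arrays but share the normalization, the estimate of the spread and the processing of each model. That spread was pooled over all groups, although the members' median SD was 0.32 in control MLL-NRIP3 and 0.09 in control MLL-AF9 leukemia (deposited values, log2 scale). For members that varied widely between MLL-NRIP3 controls, such as Sqle (SD 0.95), the SE and adjusted p in controls may be too small.

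**Figure D1:**
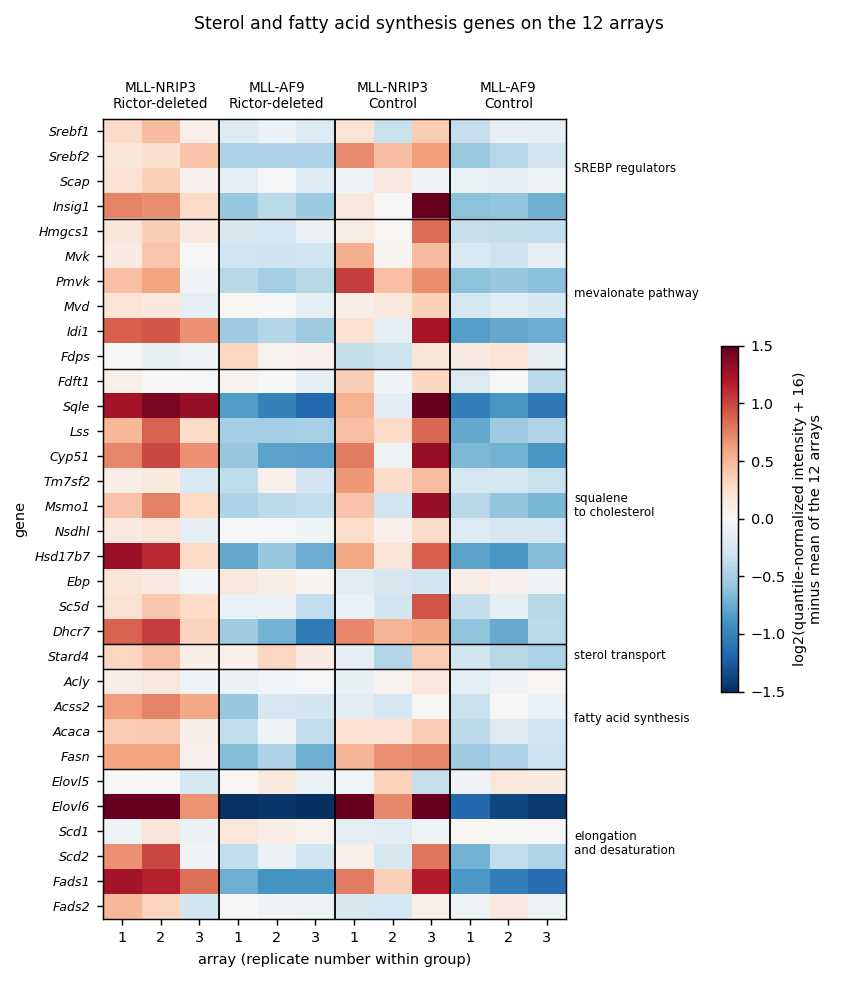
Quantile-normalized intensity of the 32 measured members (rows, grouped by role) on the 12 arrays (columns), as log2(intensity + 16) minus the mean of the 12 arrays, with the scale ending at -1.5 and 1.5. Most rows are red on the MLL-NRIP3 arrays and blue on the MLL-AF9 arrays, with MLL-NRIP3 control array 2 and Rictor-deleted array 3 paler than their neighbours.

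The scale chosen for the models affects these counts. On the deposited values, which lifted the median log2 difference of all genes to 0.46 with Rictor deleted and 0.47 in controls, 30 and 28 members were higher, and all-gene calls were 9016 higher and 766 lower in Rictor-deleted leukemia and 8994 higher and 612 lower in controls. After quantile normalization these all-gene calls were 3915 higher and 2805 lower, and 3696 higher and 2713 lower. Median centring, with all-gene medians of 0.16 and 0.17, gave 23 and 26 members higher, 0 lower, and all-gene calls of 4960 higher and 1996 lower, and 5051 higher and 1834 lower. The members' median exceeded that of all genes under each scaling, at 1.04 and 1.18 on the deposited values and 0.74 and 0.88 after median centring. Without MLL-NRIP3 control arrays 1 and 2, the control comparison called 24 members higher and 2 lower, with a median of 1.05. All-gene calls were then 2977 higher and 2259 lower, with a median of 0.04, and a single MLL-NRIP3 control array remained, which is assumed to vary like the other groups. Newly called were Sc5d (1.25, adjusted p = 0.00012), Stard4 (0.77, adjusted p = 0.0024) and Srebf1 (0.58, adjusted p = 0.01), all higher, and Elovl5, lower (-0.44, adjusted p = 0.022). Fdps turned to 0.10 (adjusted p = 0.59) and Fads2 to 0.08 (adjusted p = 0.80), neither of them called. The log2 differences of 6 members called with all arrays grew by more than 1.5 times: Sqle to 2.67, Insig1 to 2.23, Idi1 to 2.01, Msmo1 to 1.86, Scd2 to 1.31 and Hmgcs1 to 1.19.

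**Figure D2:**
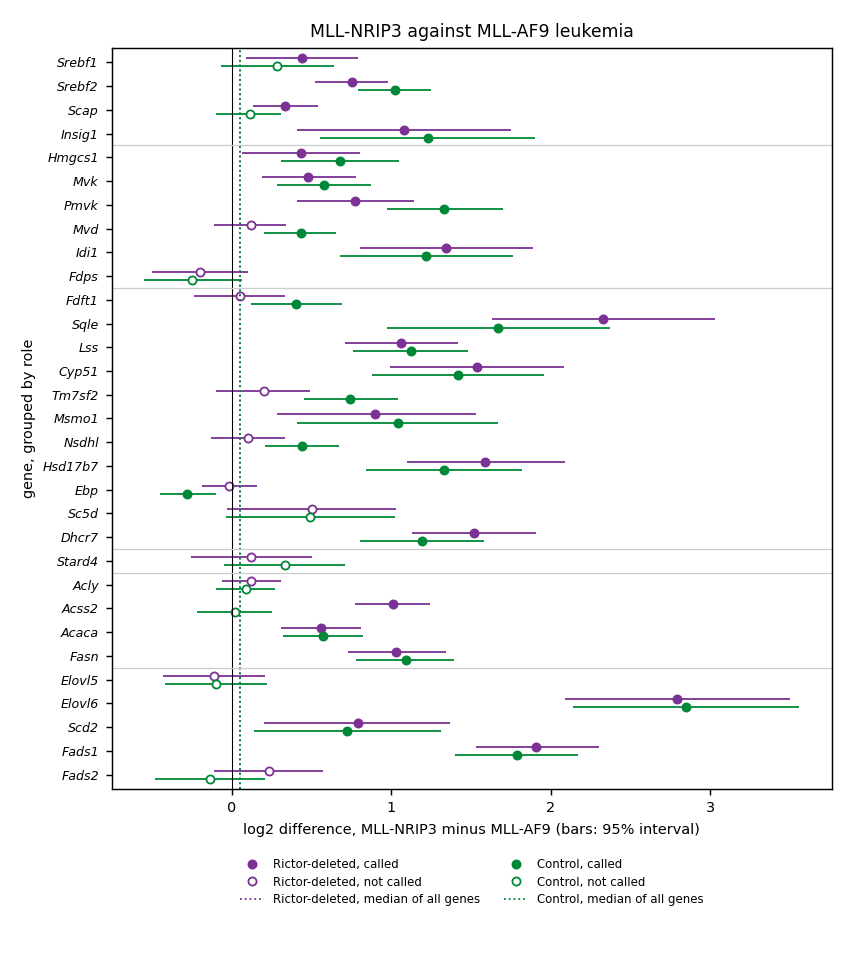
Log2 difference of each of the 31 tested members, MLL-NRIP3 minus MLL-AF9, with its 95% interval, in Rictor-deleted (purple) and control (green) leukemia; filled points passed an adjusted p under 0.05 and dotted lines mark the median of all genes. Elovl6 lies farthest right at 2.79 and 2.85, and Fdps, Ebp and Elovl5 lie left of 0 in both genotypes, with Fads2 doing so in controls, directions that turned on the deposited values.

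The promoters of 4 members called higher in MLL-NRIP3 leukemia with Rictor deleted are shown. They are those with the smallest p in that comparison that have an entry among the RefSeq promoter windows used here. The windows are from GRCm38.p6 and run from 250 bases before to 50 after the start of the gene, 5′ to 3′. Fads1, with a smaller p, has no entry. In the comparison of the control models Elovl6, Dhcr7 and Fasn were also called higher, and Acss2 was not. Windows were searched on both strands for TCACNCC, the core of a sterol regulatory element (N is any base), for CCAAT, bound by NF-Y, and for CACGTG, the E-box core; capitals mark matches.
Acss2 (chr2:155517793-155518092, plus strand): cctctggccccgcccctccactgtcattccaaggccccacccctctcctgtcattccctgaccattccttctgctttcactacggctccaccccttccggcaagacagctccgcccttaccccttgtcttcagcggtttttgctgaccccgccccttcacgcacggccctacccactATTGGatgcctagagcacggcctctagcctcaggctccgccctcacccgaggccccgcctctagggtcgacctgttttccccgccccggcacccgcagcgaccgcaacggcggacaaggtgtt
Elovl6 (chr3:129532136-129532435, plus strand): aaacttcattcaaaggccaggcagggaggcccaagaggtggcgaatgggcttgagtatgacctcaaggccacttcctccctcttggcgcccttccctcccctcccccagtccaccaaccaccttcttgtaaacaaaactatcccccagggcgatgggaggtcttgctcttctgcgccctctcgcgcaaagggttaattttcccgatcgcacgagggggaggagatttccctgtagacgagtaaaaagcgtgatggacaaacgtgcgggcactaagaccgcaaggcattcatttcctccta
Dhcr7 (chr7:143822917-143823216, plus strand): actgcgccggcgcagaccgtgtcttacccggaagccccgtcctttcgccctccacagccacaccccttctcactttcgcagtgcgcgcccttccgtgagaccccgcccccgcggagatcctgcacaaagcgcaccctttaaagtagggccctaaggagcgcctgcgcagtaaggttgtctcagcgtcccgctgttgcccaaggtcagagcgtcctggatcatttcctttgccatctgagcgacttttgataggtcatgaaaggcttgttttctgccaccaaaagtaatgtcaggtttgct
Fasn (chr11:120824498-120824797, minus strand): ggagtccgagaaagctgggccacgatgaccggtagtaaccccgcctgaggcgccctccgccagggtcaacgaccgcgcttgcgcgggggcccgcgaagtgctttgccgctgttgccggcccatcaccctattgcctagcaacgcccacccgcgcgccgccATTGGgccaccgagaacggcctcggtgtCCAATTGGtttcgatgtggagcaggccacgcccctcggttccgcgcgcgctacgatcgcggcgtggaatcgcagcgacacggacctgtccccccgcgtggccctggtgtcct
Fasn held 3 matches of CCAAT or its reverse complement, of which a pair overlapped, Acss2 held 1, and Elovl6 and Dhcr7 (the first of its 3 windows) held none of the motifs. Of the 32 measured members, 25 had a window, taking the first listed for each. CCAAT stood in 20 of these 25, against 37.4% of all 32851 windows in the table. TCACNCC stood in 3 of 25 (Hmgcs1, Msmo1 and Srebf2), against 15.6% of all windows, and CACGTG in 5 of 25, against 7.15%. A match is a string of letters and was not tested for binding, and the sterol element is known in variants that these letters do not cover.

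Among the regulators, all 4 tested genes were called higher in MLL-NRIP3 leukemia with Rictor deleted, and Srebf2 and Insig1 also in controls. Values here and in the next 5 paragraphs are quantile-normalized intensities on arrays 1, 2 and 3 of a group, and differences are on the log2(intensity + 16) scale, which understates the change of dim genes. Srebf2, which encodes SREBP-2, read 61.2, 64.9 and 75.7 on the Rictor-deleted MLL-NRIP3 arrays, against 33.4, 33.6 and 33.5 on the Rictor-deleted MLL-AF9 arrays. The same gene read 95.8, 78.4 and 89.6 on the control MLL-NRIP3 arrays, against 30.6, 34.7 and 40.4 on the control MLL-AF9 arrays. The log2 difference was 0.75 ± 0.11 (SE) in Rictor-deleted leukemia (adjusted p = 9.7e-05) and 1.02 ± 0.11 in control leukemia (adjusted p = 1.3e-05). The Srebf2 arrays of the models did not overlap in either genotype. Insig1, which retains the Scap-SREBP complex and is itself an SREBP target, read 116, 112 and 80.4 on the Rictor-deleted MLL-NRIP3 arrays, against 37.5, 43.6 and 37.8 on the Rictor-deleted MLL-AF9 arrays. The control values of Insig1 were 72.1, 63.2 and 221 on the control MLL-NRIP3 arrays, against 35.8, 36.3 and 31.7 on the control MLL-AF9 arrays. MLL-NRIP3 control array 3 was far above the other controls for this gene. MLL-NRIP3 minus MLL-AF9 was 1.08 ± 0.31 (SE) in Rictor-deleted and 1.23 ± 0.31 in control leukemia on the log2 scale, with adjusted p = 0.011 and 0.0058. Because the spread was pooled over all groups, the SE and adjusted p in controls may be too small for this gene. Srebf1 (SREBP-1) read 182, 209 and 155 on the Rictor-deleted MLL-NRIP3 arrays, against 126, 137 and 125 on the Rictor-deleted MLL-AF9 arrays. It read 171, 113 and 195 on the control MLL-NRIP3 arrays, against 112, 133 and 132 on the control MLL-AF9 arrays, where the groups overlapped because MLL-NRIP3 control array 2 lay within the MLL-AF9 range. The Srebf1 difference was 0.44 ± 0.16 (SE) with Rictor deleted (adjusted p = 0.036) and 0.28 ± 0.16 in controls (adjusted p = 0.16). Scap, the sterol sensor and escort, read 280, 309 and 251 on the Rictor-deleted MLL-NRIP3 arrays, against 213, 234 and 207 on the Rictor-deleted MLL-AF9 arrays. In controls Scap read 227, 264 and 229 on the MLL-NRIP3 arrays, against 221, 217 and 227 on the MLL-AF9 arrays. Its difference was 0.33 ± 0.09 with Rictor deleted (adjusted p = 0.0091) and 0.11 ± 0.09 in controls (adjusted p = 0.36). The test of whether these differences depend on genotype is that of the responses, given last, and neither Srebf1 (0.16 ± 0.23, adjusted p = 0.76) nor Scap (0.23 ± 0.13, adjusted p = 0.37) passed it.

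In the mevalonate pathway, which builds the isoprenoid units of sterols, 4 of 6 tested members were called higher with Rictor deleted and 5 of 6 in controls. Idi1, which interconverts isopentenyl and dimethylallyl diphosphate, had the largest difference of the 6 with Rictor deleted (2.54-fold, and 2.33-fold in controls), and Pmvk in controls (2.52-fold, and 1.71-fold with Rictor deleted). Idi1 read 217, 222 and 186 on the Rictor-deleted MLL-NRIP3 arrays, against 70.2, 76.2 and 70.3 on the Rictor-deleted MLL-AF9 arrays. The same gene read 131, 98.2 and 280 on the control MLL-NRIP3 arrays, against 54.9, 57.8 and 58.7 on the control MLL-AF9 arrays. The fitted log2 difference was 1.34 ± 0.25 (SE) in Rictor-deleted leukemia (adjusted p = 0.00073) and 1.22 ± 0.25 in control leukemia (adjusted p = 0.0016). Pmvk, phosphomevalonate kinase, read 101, 113 and 66 on the Rictor-deleted MLL-NRIP3 arrays, against 48.1, 44 and 48.2 on the Rictor-deleted MLL-AF9 arrays. Its control values were 160, 101 and 123 on the control MLL-NRIP3 arrays, against 39.8, 41.8 and 39.7 on the control MLL-AF9 arrays, and the models did not overlap. This gave a log2 difference of 0.77 ± 0.17 (SE) in Rictor-deleted leukemia (adjusted p = 0.002) and 1.33 ± 0.17 in control leukemia (adjusted p = 5.6e-05). Mvk, mevalonate kinase, read 34.9, 46.3 and 30.4 on the Rictor-deleted MLL-NRIP3 arrays, against 21.9, 21.7 and 21.9 on the Rictor-deleted MLL-AF9 arrays. In controls it read 52.1, 32.2 and 49 on the control MLL-NRIP3 arrays, against 23.9, 21.6 and 27 on the control MLL-AF9 arrays. The models differed by 0.48 ± 0.13 (SE) in Rictor-deleted and 0.58 ± 0.13 in control leukemia on the log2 scale, with adjusted p = 0.0095 and 0.0037. The other Mvk probe set, with a mean intensity of 22.7 against 33.8, did not show this, at -0.14 and -0.01. Hmgcs1, which makes HMG-CoA, read 131, 151 and 127 on the Rictor-deleted MLL-NRIP3 arrays, against 93.5, 92 and 106 on the Rictor-deleted MLL-AF9 arrays. Hmgcs1 in controls read 124, 116 and 215 on the control MLL-NRIP3 arrays, against 85.6, 84.9 and 84.5 on the control MLL-AF9 arrays, and every MLL-NRIP3 array exceeded every MLL-AF9 array. The difference between models was 0.43 ± 0.17 (SE) in Rictor-deleted and 0.68 ± 0.17 in control leukemia on the log2 scale, with adjusted p = 0.0498 and 0.0053. The Hmgcs1 call was lost in 12 of 23 alternatives with Rictor deleted and in 1 of 23 in controls. With the mean of its probe sets it was lost in both (0.25, adjusted p = 0.22, and 0.30, adjusted p = 0.15). Mvd, mevalonate diphosphate decarboxylase, read 32.1, 30.6 and 22.1 on the Rictor-deleted MLL-NRIP3 arrays, against 26.7, 25.3 and 21.8 on the Rictor-deleted MLL-AF9 arrays, with overlap. In controls it read 28.3, 30.6 and 37.8 on the MLL-NRIP3 arrays, against 18.8, 21.1 and 19.3 on the MLL-AF9 arrays, without overlap. Mvd passed the test in controls (0.43 ± 0.10, adjusted p = 0.0044) and not with Rictor deleted (0.12 ± 0.10, adjusted p = 0.35). The other Mvd probe set, nearly as bright, gave 0.56 with Rictor deleted and 0.81 in controls. With Rictor deleted, Mvd was called higher by the mean of its probe sets (0.34, adjusted p = 0.036) and after median centring (0.29, adjusted p = 0.046). In the test of the responses the genotypes were not shown to differ for Mvd (-0.31 ± 0.15, adjusted p = 0.26). Fdps, farnesyl diphosphate synthase, passed in neither, with 307, 284 and 297 on the Rictor-deleted MLL-NRIP3 arrays, against 389, 320 and 322 on the Rictor-deleted MLL-AF9 arrays. Its differences were -0.20 ± 0.14 with Rictor deleted and -0.25 ± 0.14 in controls, and on the deposited values they turned to 0.28 (adjusted p = 0.10) and 0.26 (adjusted p = 0.13).

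From squalene to cholesterol, 6 of 11 tested members were called higher with Rictor deleted, and 9 higher and 1 lower in controls. Sqle, squalene epoxidase and a rate-limiting step, differed most, 5.03-fold with Rictor deleted and 3.18-fold in controls. Sqle read 129, 146 and 135 on the Rictor-deleted MLL-NRIP3 arrays, against 18.1, 14.1 and 11.2 on the Rictor-deleted MLL-AF9 arrays. The same gene read 71.4, 38.3 and 180 on the control MLL-NRIP3 arrays, against 13.8, 17.2 and 13.1 on the control MLL-AF9 arrays. The log2 difference was 2.33 ± 0.32 (SE) in Rictor-deleted leukemia (adjusted p = 8.7e-05) and 1.67 ± 0.32 in control leukemia (adjusted p = 0.0011). The 3 Rictor-deleted MLL-NRIP3 arrays were close together, whereas the control MLL-NRIP3 arrays spread widely around them. Hsd17b7, a 3-ketosteroid reductase of the pathway, read 124, 108 and 54.5 on the Rictor-deleted MLL-NRIP3 arrays, against 17.6, 22.6 and 18.1 on the Rictor-deleted MLL-AF9 arrays. The controls read 69.6, 49.1 and 90.7 on the control MLL-NRIP3 arrays, against 16.8, 15.3 and 20.5 on the control MLL-AF9 arrays, and the models did not overlap. The fitted log2 difference was 1.59 ± 0.23 (SE) in Rictor-deleted leukemia (adjusted p = 0.00011) and 1.33 ± 0.23 in control leukemia (adjusted p = 0.00046). Cyp51, lanosterol demethylase, read 48.4, 61.8 and 46.5 on the Rictor-deleted MLL-NRIP3 arrays, against 10.1, 6.2 and 6.04 on the Rictor-deleted MLL-AF9 arrays. Cyp51 in controls read 50.3, 20.7 and 79.8 on the control MLL-NRIP3 arrays, against 8.27, 7.65 and 5.13 on the control MLL-AF9 arrays, and its deposited mean in Rictor-deleted and control MLL-AF9 leukemia was 6.19 and 5.91, under the minimum of 7.7. MLL-NRIP3 minus MLL-AF9 was 1.54 ± 0.25 (SE) in Rictor-deleted and 1.42 ± 0.25 in control leukemia on the log2 scale, with adjusted p = 0.00028 and 0.00057. Dhcr7, which catalyses the last reduction to cholesterol, read 202, 227 and 134 on the Rictor-deleted MLL-NRIP3 arrays, against 65.8, 56.4 and 40.6 on the Rictor-deleted MLL-AF9 arrays. Its control values were 179, 153 and 160 on the control MLL-NRIP3 arrays, against 61.6, 54.3 and 73.7 on the control MLL-AF9 arrays, again without overlap. The models differed by 1.52 ± 0.18 (SE) in Rictor-deleted and 1.19 ± 0.18 in control leukemia on the log2 scale, with adjusted p = 2.5e-05 and 0.00019.

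Lss, lanosterol synthase, read 67.5, 93.2 and 56.2 on the Rictor-deleted MLL-NRIP3 arrays, against 25.6, 25.4 and 25.8 on the Rictor-deleted MLL-AF9 arrays. In controls it read 64.9, 56.4 and 91 on the control MLL-NRIP3 arrays, against 18.6, 24.6 and 27.3 on the control MLL-AF9 arrays, and the models did not overlap. This gave a log2 difference of 1.06 ± 0.16 (SE) in Rictor-deleted leukemia (adjusted p = 2e-04) and 1.12 ± 0.16 in control leukemia (adjusted p = 0.00016). The other Lss probe sets were dimmer, with mean intensities of 10.4 and 8.56 against 52.4. They gave smaller differences, 0.01 and 0.24 with Rictor deleted and 0.15 and 0.47 in controls. Msmo1, methylsterol monooxygenase, read 84.6, 110 and 76.1 on the Rictor-deleted MLL-NRIP3 arrays, against 38.4, 40.7 and 41.8 on the Rictor-deleted MLL-AF9 arrays. The controls read 84.3, 44.8 and 168 on the control MLL-NRIP3 arrays, against 40, 33.7 and 30.3 on the control MLL-AF9 arrays, with MLL-NRIP3 array 3 the highest and array 2 the lowest of its group. The difference between models was 0.90 ± 0.29 (SE) in Rictor-deleted and 1.04 ± 0.29 in control leukemia on the log2 scale, with adjusted p = 0.019 and 0.0097. Fdft1, Tm7sf2 and Nsdhl passed in controls and not with Rictor deleted, and the genotypes were not shown to differ (adjusted p = 0.32, 0.13 and 0.22 in the test of the responses). Fdft1, squalene synthase, read 114, 80.4 and 109 on the control MLL-NRIP3 arrays, against 71.5, 85.2 and 60.5 on the control MLL-AF9 arrays, with overlap. Its difference was 0.40 ± 0.13 in controls (adjusted p = 0.022) and 0.05 ± 0.13 with Rictor deleted (adjusted p = 0.78). Tm7sf2, a sterol C14 reductase, read 65.6, 47.8 and 55.9 on the control MLL-NRIP3 arrays, against 27.5, 28.2 and 25.5 on the control MLL-AF9 arrays, without overlap. It differed by 0.74 ± 0.14 in controls (adjusted p = 0.00078) and by 0.20 ± 0.14 with Rictor deleted (adjusted p = 0.24). Nsdhl, a sterol dehydrogenase gene on the X chromosome, read 95.9, 82.6 and 98.2 on the control MLL-NRIP3 arrays, against 65.1, 63.4 and 61.8 on the control MLL-AF9 arrays. Its difference was 0.44 ± 0.11 in controls (adjusted p = 0.004) and 0.10 ± 0.11 with Rictor deleted (adjusted p = 0.46). Ebp, the X-linked sterol isomerase, went the other way in controls, with 395, 379 and 365 on the control MLL-NRIP3 arrays, against 486, 473 and 432 on the control MLL-AF9 arrays. It fell by 0.28 ± 0.08 (SE) on the log2 scale (adjusted p = 0.012), a direction that turned to 0.22 (adjusted p = 0.053) on the deposited values. With Rictor deleted Ebp read 511, 496 and 435 on the Rictor-deleted MLL-NRIP3 arrays, against 507, 485 and 465 on the Rictor-deleted MLL-AF9 arrays, a difference of -0.02 ± 0.08 (adjusted p = 0.87). Sc5d, sterol C5 desaturase, passed in neither genotype, with 0.50 ± 0.24 with Rictor deleted and 0.49 ± 0.24 in controls, although its Rictor-deleted models did not overlap. It was called in controls without MLL-NRIP3 control array 2 (0.73, adjusted p = 0.025), and without control arrays 1 and 2 in controls (1.25, adjusted p = 0.00012) and with Rictor deleted (0.50, adjusted p = 0.0024). Stard4, which carries cholesterol between membranes, also passed in neither, with 0.12 ± 0.17 with Rictor deleted and 0.33 ± 0.17 in controls. The other Stard4 probe sets gave 0.54 and 0.61 with Rictor deleted and 0.78 and 0.67 in controls, and the mean of its probe sets was called higher in both (0.42, adjusted p = 0.046, and 0.59, adjusted p = 0.01). Stard4 was also called in controls without MLL-NRIP3 control array 2 (0.52, adjusted p = 0.019) and without control arrays 1 and 2 (0.77, adjusted p = 0.0024).

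Among the enzymes of fatty acid synthesis, Fasn and Acaca were called higher in both genotypes and Acss2 only with Rictor deleted. Fasn, fatty acid synthase, read 253, 255 and 170 on the Rictor-deleted MLL-NRIP3 arrays, against 97.8, 113 and 91.6 on the Rictor-deleted MLL-AF9 arrays. Its control values were 237, 271 and 281 on the control MLL-NRIP3 arrays, against 106, 113 and 127 on the control MLL-AF9 arrays, without overlap. The log2 difference was 1.03 ± 0.14 (SE) in Rictor-deleted leukemia (adjusted p = 8.1e-05) and 1.09 ± 0.14 in control leukemia (adjusted p = 7.3e-05). Acaca, acetyl-CoA carboxylase, read 206, 208 and 166 on the Rictor-deleted MLL-NRIP3 arrays, against 116, 147 and 116 on the Rictor-deleted MLL-AF9 arrays. Acaca in controls read 184, 182 and 206 on the control MLL-NRIP3 arrays, against 114, 133 and 124 on the control MLL-AF9 arrays, and the models were again separate. MLL-NRIP3 minus MLL-AF9 was 0.56 ± 0.12 (SE) in Rictor-deleted and 0.57 ± 0.12 in control leukemia on the log2 scale, with adjusted p = 0.0015 and 0.0015. Acss2, which makes acetyl-CoA from acetate, read 34.9, 39.2 and 32.9 on the Rictor-deleted MLL-NRIP3 arrays, against 6.35, 11.8 and 11.1 on the Rictor-deleted MLL-AF9 arrays. In controls it read 13.6, 11.8 and 17.4 on the control MLL-NRIP3 arrays, against 10.2, 17 and 14.8 on the control MLL-AF9 arrays, with overlap of the models. The fitted log2 difference was 1.01 ± 0.11 (SE) in Rictor-deleted leukemia (adjusted p = 1.3e-05) and 0.02 ± 0.11 in control leukemia (adjusted p = 0.91). Acly, ATP citrate lyase, did not pass in either, at 0.12 ± 0.09 with Rictor deleted and 0.09 ± 0.09 in controls.

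The genes of fatty acid elongation and desaturation included Elovl6, the member with the largest difference on the log2(intensity + 16) scale. Elovl6, which elongates C16 fatty acids to C18, was 6.93-fold higher in MLL-NRIP3 leukemia with Rictor deleted and 7.22-fold higher in controls. Elovl6 read 187, 191 and 91 on the Rictor-deleted MLL-NRIP3 arrays, against 8.1, 8.41 and 6.83 on the Rictor-deleted MLL-AF9 arrays. The same gene read 181, 95 and 314 on the control MLL-NRIP3 arrays, against 13.7, 10.1 and 8.76 on the control MLL-AF9 arrays. This gave a log2 difference of 2.79 ± 0.33 (SE) in Rictor-deleted leukemia (adjusted p = 2.4e-05) and 2.85 ± 0.33 in control leukemia (adjusted p = 2.8e-05). Its deposited mean was 6.34 in Rictor-deleted and 8.18 in control MLL-AF9 leukemia, below the median of their arrays, so the size of the fold rests on the 16 added to each intensity. Fads1, the delta-5 desaturase of polyunsaturated fatty acids, read 108, 100 and 76.4 on the Rictor-deleted MLL-NRIP3 arrays, against 15.3, 12.1 and 12.2 on the Rictor-deleted MLL-AF9 arrays. The controls read 73.7, 50.8 and 102 on the control MLL-NRIP3 arrays, against 12.7, 9.37 and 7.64 on the control MLL-AF9 arrays, without overlap. The models differed by 1.91 ± 0.18 (SE) in Rictor-deleted and 1.79 ± 0.18 in control leukemia on the log2 scale, with adjusted p = 4.2e-06 and 9.5e-06. Scd2, a stearoyl-CoA desaturase, read 602, 757 and 352 on the Rictor-deleted MLL-NRIP3 arrays, against 283, 345 and 302 on the Rictor-deleted MLL-AF9 arrays. Its control values were 390, 310 and 656 on the control MLL-NRIP3 arrays, against 220, 281 and 266 on the control MLL-AF9 arrays, without overlap, and MLL-NRIP3 array 2 close to the MLL-AF9 arrays. The difference between models was 0.79 ± 0.27 (SE) in Rictor-deleted and 0.72 ± 0.27 in control leukemia on the log2 scale, with adjusted p = 0.026 and 0.04. Its call was lost in 4 of 23 alternatives with Rictor deleted and in 11 of 23 in controls, with 0.43 (adjusted p = 0.15) without MLL-NRIP3 control array 3. Scd1, its paralog, was below the minimum for testing, at 3.87 to 9.17 over the 12 arrays. Elovl5, which elongates polyunsaturated fatty acids, did not pass, at -0.11 ± 0.15 with Rictor deleted and -0.10 ± 0.15 in controls. On the deposited values it was higher, by 0.38 (adjusted p = 0.031) and 0.40 (adjusted p = 0.025), and Ebp with Rictor deleted likewise by 0.46 (adjusted p = 8.1e-04). Fads2, the delta-6 desaturase, did not pass either, at 0.23 ± 0.16 with Rictor deleted and -0.14 ± 0.16 in controls, where it turned to 0.08 (adjusted p = 0.70) on the deposited values.

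**Figure D3:**
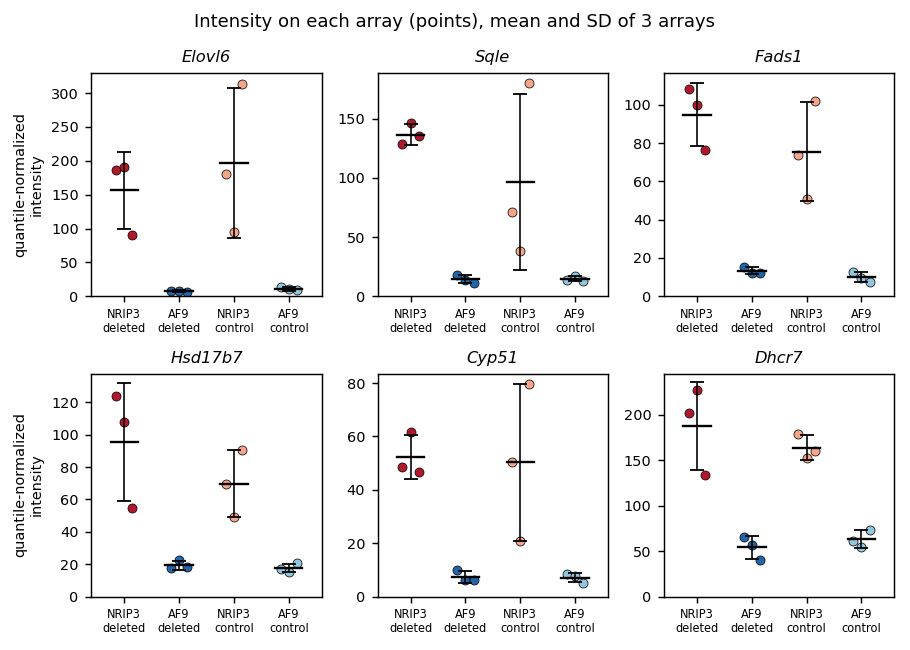
Quantile-normalized intensity on each array (points) with the mean (line) and SD (bars) of 3 arrays, for the 6 members with the largest difference in Rictor-deleted leukemia; each panel gives Rictor-deleted MLL-NRIP3 and MLL-AF9, then control MLL-NRIP3 and MLL-AF9. Elovl6 read 91 to 191 on the Rictor-deleted MLL-NRIP3 arrays, against 6.83 to 8.41 on the Rictor-deleted MLL-AF9 arrays.

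Further probe sets were available for 23 members, 42 in all. For members called with Rictor deleted, 20 of 24 further probe sets had the sign of the one used, and 15 of the 17 of these that passed the intensity minimum. In controls these numbers were 20 of 25 and 16 of 19. A second Elovl6 probe set gave log2 differences of 1.72 with Rictor deleted and 1.66 in controls, while a second Fads1 probe set gave 0.14 and 0.28. A second Srebf2 probe set gave 0.61 and 0.35. The further Hmgcs1 probe sets above the intensity minimum gave 0.23 to 0.29 with Rictor deleted and 0.09 to 0.39 in controls. The probe sets used for Fdft1, Hsd17b7, Elovl5 and Lss are of types that can share sequence with other transcripts, so their values are less certain.

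Genes next to these pathways, from lists fixed by name, were counted in the same way. Beside these counts, 31.1% of all genes were higher and 22.3% lower with Rictor deleted, and 29.4% higher and 21.6% lower in controls. Of 13 other sterol and SREBP genes, 4 were higher and 2 lower in MLL-NRIP3 leukemia with Rictor deleted, and 1 was higher and 2 were lower in controls. Rnf139, a ubiquitin ligase of the endoplasmic reticulum, was higher in both (log2 0.38 and 0.46, adjusted p = 0.0026 and 0.00088). The 2 lower genes in controls were Acat1 (log2 -0.53, adjusted p = 0.00073) and Insig2 (log2 -0.36, adjusted p = 0.028). The median of these 13 genes was 0.12 with Rictor deleted and -0.07 in controls, against 0.05 for all genes in both. Of 13 genes of LXR, the oxysterol receptor, and of sterol efflux, 3 were higher and 6 lower with Rictor deleted, and 4 higher and 5 lower in controls. Apoe, an apolipoprotein and LXR target, averaged 13.5 ± 0.177 on Rictor-deleted MLL-NRIP3 arrays, against 82 ± 6.01 on Rictor-deleted MLL-AF9 arrays. In controls it averaged 20.4 ± 5.26 in MLL-NRIP3 and 106 ± 6.53 in MLL-AF9 arrays (SD, n = 3 each). Its log2 differences were -1.73 and -1.75 (adjusted p = 2.2e-07 and 2.5e-07). Among 33 other fatty acid and glycerolipid genes, 14 were higher and 5 lower with Rictor deleted, and 12 higher and 4 lower in controls. Among 23 fatty acid oxidation genes, 9 were higher and 2 lower in each genotype, Hadh, a mitochondrial dehydrogenase of the pathway, by log2 0.77 and 0.95 (adjusted p = 6.5e-05 and 1.9e-05). Beside all of these, 13 of 13 mature neutrophil markers were lower in MLL-NRIP3 leukemia with Rictor deleted, against 1 of 13 lower and 1 higher in controls, and 6 of 6 B lineage markers were lower in both. Of 10 monocyte and macrophage markers, 2 were higher and 7 lower with Rictor deleted (median -0.84), and 2 higher and 8 lower in controls (median -1.34). Of 6 mast cell, basophil and eosinophil markers, 3 were higher and 2 lower with Rictor deleted, and 2 higher and 3 lower in controls. The part of these markers in the differences of the members and of Apoe was not tested. The members' median was 0.56 in the first comparison and 0.68 in the second.

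Within MLL-AF9 leukemia, Stard4, the cholesterol carrier, was the single member called between Rictor-deleted and control arrays. Of the 31 members, 1 was higher and 0 were lower in Rictor-deleted than in control leukemia (limma, fitted to the 6 MLL-AF9 arrays), where 3.8% of all genes were higher and 4.46% lower (8.26% either way), and 8 members had an unadjusted p under 0.05. Acss2 had the largest p of these 8 and ranked 2639, so at least 2639 of the 12573 genes were under 0.05 as well. The count of 8 is therefore not shown to be particular to the members. The median log2 difference was 0.07 for the members and -0.01 for all genes. Stard4 had deposited intensities of 62, 76.5 and 63.9 on the Rictor-deleted arrays, against 45.3, 39.9 and 36.7 on the control arrays. All 3 deleted arrays lay above all controls, at 67.4 ± 7.87 against 40.6 ± 4.34 (SD, n = 3 each). The log2 difference was 0.56 ± 0.09 (SE), or 1.47-fold (adjusted p = 0.0041), and both further probe sets were higher as well, by 0.65 and 0.50. Its call was lost when the spread was estimated from all 12 arrays (adjusted p = 0.32). Over the 17 alternatives the difference lay between 0.33 and 0.72 and the adjusted p between 0.0018 and 0.32.

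For 7 members all Rictor-deleted arrays lay above all controls in MLL-AF9 leukemia (11.4% of all genes), and for 1 they lay below (15.7% of all genes, making 27.1% either way). Apart from Stard4 none of these passed the test. Idi1 had deposited intensities of 55.4, 61.6 and 54.9 on the Rictor-deleted arrays, against 44.4, 46.2 and 45.7 on the control arrays. Its difference of 0.25 ± 0.08 had an adjusted p of 0.073, and it passed with quantile normalization (0.044), with the 60th percentile as the minimum (0.046) and with the mean of probe sets (0.038). Mvd read 19.6, 18.9 and 16 on the Rictor-deleted arrays, against 13.8, 15.2 and 14 on the control arrays (0.17 ± 0.06). Nsdhl read 61, 61.3 and 57.1 on the Rictor-deleted arrays, against 53.2, 50.8 and 48 on the control arrays (0.18 ± 0.08). Nsdhl lies on the X chromosome, and genotype and sex cannot be told apart in this comparison. Hmgcs1 read 74.5, 74.5 and 83.2 on the Rictor-deleted arrays, against 70.4, 68.7 and 66.9 on the control arrays (0.14 ± 0.08). Pmvk read 36.8, 34.2 and 36.7 on the Rictor-deleted arrays, against 31.3, 32 and 29.8 on the control arrays (0.14 ± 0.07). Insig1 read 28.1, 34 and 28.4 on the Rictor-deleted arrays, against 27.8, 27.6 and 23.2 on the control arrays (0.13 ± 0.08). The log2 differences of these 6 members were 0.25 or less. Elovl6 was lower on each Rictor-deleted array, with 6.55, 6.61 and 5.86 on these and 9.88, 7.66 and 6.98 on the control arrays (-0.11 ± 0.05, adjusted p = 0.17), all of them low intensities. Among the roles with several members, the highest median was that of the mevalonate pathway (0.14, 5 of 6 positive) and the lowest that of fatty acid synthesis (-0.08, 1 of 4 positive).

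**Figure D4:**
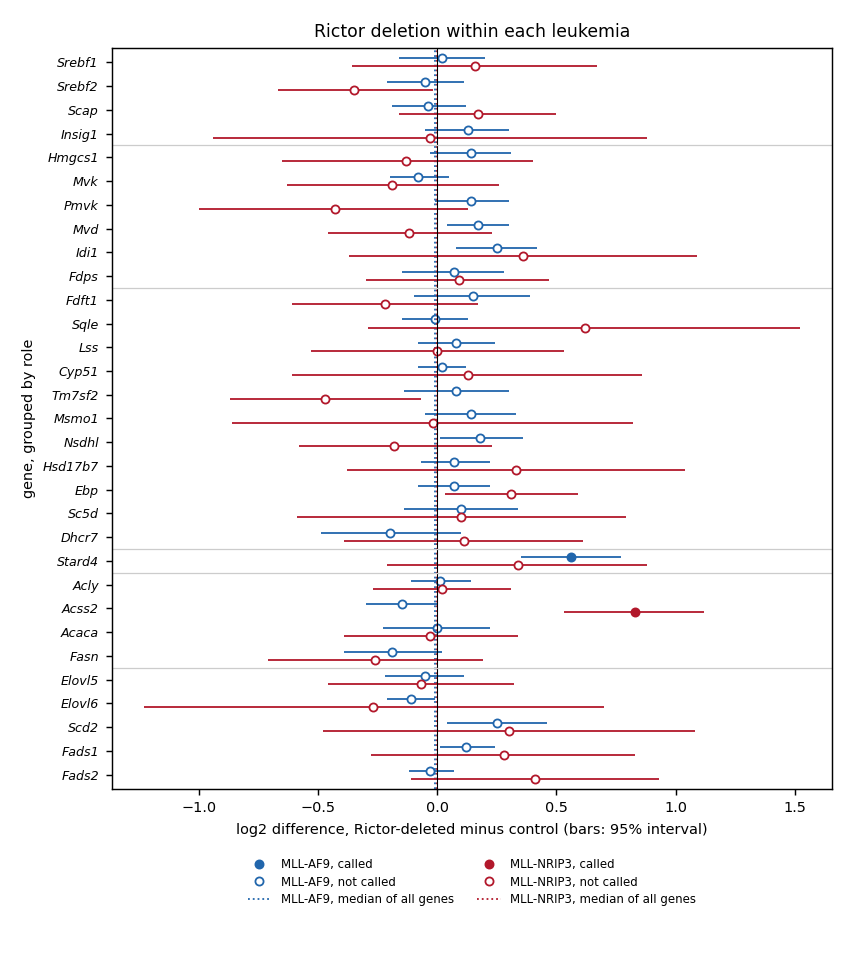
Log2 difference of each of the 31 tested members, Rictor-deleted minus control, with its 95% interval, in MLL-AF9 (blue) and MLL-NRIP3 (red) leukemia; filled points passed an adjusted p under 0.05. Stard4 in MLL-AF9 (0.56) and Acss2 in MLL-NRIP3 leukemia (0.83) are filled, and most MLL-NRIP3 intervals are wider than the MLL-AF9 intervals of the same gene.

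In neighbouring lists, 3 LXR and sterol efflux genes were lower and 4 other fatty acid and glycerolipid genes higher in Rictor-deleted than in control MLL-AF9 leukemia. Of all genes, 3.8% were higher and 4.46% lower in this comparison. Abca1, a cholesterol exporter, averaged 10.5 ± 1.06 on Rictor-deleted and 20.5 ± 4.72 on control arrays (log2 -0.45, adjusted p = 0.0059). Apoe averaged 65.4 ± 4.43 on Rictor-deleted and 85.6 ± 6.37 on control arrays (log2 -0.32, adjusted p = 0.037; SD, n = 3 each). Of 13 LXR and efflux genes, 3 were lower (these 2 genes and Osbpl5) and 1, the sterol 27-hydroxylase Cyp27a1, was higher. Npc1 and Npc2, which export cholesterol from lysosomes, were the 2 genes called of 13 other sterol genes, lower by log2 differences of -0.32 and -0.27 (adjusted p = 0.03 and 0.014). Of 33 other fatty acid and glycerolipid genes, 4 were higher and 2 lower, and of 23 oxidation genes 0 were higher and 1 was lower. Agpat2, an acyltransferase of triglyceride synthesis, averaged 192 ± 28.4 on Rictor-deleted and 90.2 ± 7.66 on control arrays (log2 0.96, adjusted p = 0.00017). Dgat1, which completes triglyceride synthesis, averaged 259 ± 36.9 on Rictor-deleted and 155 ± 18.7 on control arrays (log2 0.69, adjusted p = 0.0021). Hacd4, 1 of the 2 lower genes, averaged 104 ± 16.1 on Rictor-deleted and 200 ± 28.7 on control arrays (log2 -0.85, adjusted p = 9e-04). Hacd2 was higher (log2 0.38, adjusted p = 0.0011). Beside these, 13 of 13 mature neutrophil markers were higher in Rictor-deleted MLL-AF9 leukemia, with a median log2 difference of 1.5, and 6 of 10 monocyte and macrophage markers were lower; their part in these results was not tested.

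In MLL-NRIP3 leukemia the single member called between Rictor-deleted and control arrays was Acss2, the acetyl-CoA synthetase. With a median SE of 0.23, members that were not called are not shown to be unchanged. Of the 31 members, 1 was higher and 0 were lower in Rictor-deleted than in control leukemia, where 0.779% of all genes were higher and 0.748% lower (1.53% either way), and 4 members had an unadjusted p under 0.05. Srebf2 had the largest p of these 4 and ranked 1923, so at least 1923 of the 12573 genes were under 0.05 as well. The count of 4 is therefore not shown to be particular to the members. The median log2 difference was 0.02 for the members and 0 for all genes. Acss2 had deposited intensities of 44.1, 50.9 and 38.2 on the Rictor-deleted arrays, against 17, 15 and 22.3 on the control arrays. The groups were separate, at 44.4 ± 6.35 against 18.1 ± 3.8 (SD, n = 3 each). The fitted log2 difference was 0.83 ± 0.13 (SE), or 1.77-fold on the log2(intensity + 16) scale (adjusted p = 0.025). The other Acss2 probe sets gave 0.27 and, for a dim one, 0.00. The call was lost with the mean of the probe sets (0.36, adjusted p = 0.14). Leaving out 1 array lost it for control array 1 (adjusted p = 0.093), control array 2 (0.11), Rictor-deleted array 1 (0.092) and Rictor-deleted array 2 (0.084), and without control arrays 1 and 2 the difference was 0.65 (adjusted p = 0.36).

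Other members whose arrays separated in MLL-NRIP3 leukemia did not pass. Ebp lay above on all Rictor-deleted arrays, with 610, 598 and 481 on these and 468, 439 and 438 on the control arrays (0.31 ± 0.12, adjusted p = 0.24). Srebf2 lay below, with 75.4, 82.9 and 81.7 on the Rictor-deleted and 117, 93 and 109 on the control arrays (-0.35 ± 0.14, adjusted p = 0.25), while its other probe set, nearly as bright, went up by 0.15. Tm7sf2 also lay below, with 49.9, 53.8 and 33.9 on the Rictor-deleted and 80.2, 58.4 and 68.7 on the control arrays (-0.47 ± 0.17, adjusted p = 0.22). Thus 2 members lay above (9.7% of all genes) and 2 below (12.7% of all genes, making 22.5% either way). Sqle had a wide interval, with 156, 182 and 145 on the Rictor-deleted and 87.1, 47.6 and 217 on the control arrays (0.62 ± 0.40, 95% interval -0.29 to 1.52). It passed without control array 3 (1.12, adjusted p = 0.027), the array that read 217, and was -0.40 (adjusted p = 0.68) without control arrays 1 and 2. No gene of the 13 other sterol, 13 LXR and efflux, 33 other fatty acid and glycerolipid, or 23 oxidation genes was called in this comparison by limma. Beside these results, 4 of 13 mature neutrophil markers were lower in Rictor-deleted MLL-NRIP3 leukemia and none was higher, with a median log2 difference of -1.46. Cpa3, 1 of 6 mast cell, basophil and eosinophil markers, was 6.47-fold higher (log2 2.69, adjusted p = 0.046), and Ighm, 1 of 6 B lineage markers, was lower (log2 -3.09, adjusted p = 0.033). The part of these markers was not tested.

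**Figure D5:**
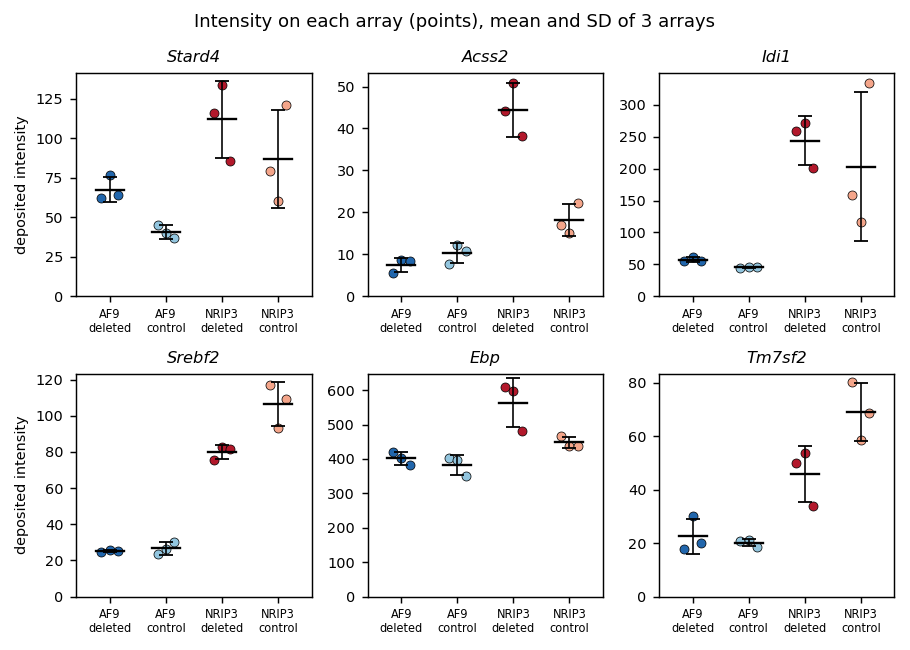
Deposited intensity on each array (points) with the mean (line) and SD (bars) of 3 arrays, for Stard4, Acss2, Idi1, Srebf2, Ebp and Tm7sf2; levels compare within a model only, because the array medians of the models differ. Stard4 separates the MLL-AF9 genotypes (62 to 76.5 against 36.7 to 45.3) and Acss2 the MLL-NRIP3 genotypes (38.2 to 50.9 against 15 to 22.3).

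The members varied more between MLL-NRIP3 arrays of the same group than most genes did. Their median SD on the log2 scale was 0.26 in Rictor-deleted and 0.32 in control MLL-NRIP3 leukemia, against 0.14 and 0.15 for all genes, and 0.09 in both MLL-AF9 groups, against 0.06 and 0.08 for all genes. Many members had the same order of arrays: control array 2 was the lowest control for 24 of 31 members and control array 3 the highest for 22, while Rictor-deleted array 3 was the lowest of the 6 MLL-NRIP3 arrays for 15. This order was read on the deposited values and was not counted over all genes, so it is not shown to be particular to the members. The mean of the 31 members, on the log2 scale after quantile normalization, was 7.21, 7.30 and 6.93 on the Rictor-deleted MLL-NRIP3 arrays and 7.03, 6.79 and 7.38 on the control MLL-NRIP3 arrays. It was 6.32 to 6.43 on the Rictor-deleted MLL-AF9 arrays and 6.29 to 6.35 on the control MLL-AF9 arrays. The MLL-NRIP3 means therefore all exceeded the MLL-AF9 means, while the MLL-NRIP3 genotypes overlapped. Sqle spread most among controls, with an SD of 0.95, and Elovl6 among Rictor-deleted arrays, with 0.64. Several other measures moved with the arrays of the control group: hybridization controls (11.22, 10.62 and 9.54 on arrays 1, 2 and 3), the 5′ to 3′ ratio of the Gapdh control probe sets (0.562, 0.738 and 0.952) and the summed neutrophil markers (19000, 8290 and 4210). Control array 2 was the lowest for the members and the middle one of the 3 for each of these measures, whose part in the spread was not tested.

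The direction of the MLL-NRIP3 response hung on single arrays. With all arrays 17 members were positive and 14 negative, and 13 were positive and 18 negative without control array 1, control array 2 or Rictor-deleted array 2, each left out alone. Without control array 3, 22 were positive and 9 negative (median log2 difference 0.17), and without Rictor-deleted array 3, 23 were positive and 8 negative (0.16). Without control arrays 1 and 2, 6 were positive and 25 negative (-0.31), against a single remaining control array that is assumed to vary like the other groups. The median of all genes was 0 without control array 3, 0.01 without Rictor-deleted array 3 and 0 without control arrays 1 and 2. Signs were not counted over all genes.

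The test of whether the response to Rictor deletion differed between the models called 1 member, Acss2. Of 31 members, 1 had a larger response in MLL-NRIP3 than in MLL-AF9 leukemia and 0 a smaller one, where 2.34% of all genes were called in the first direction and 2.55% in the second (4.89% either way), and 5 members had an unadjusted p under 0.05. Acss2 rose in MLL-NRIP3 leukemia as given above, whereas in MLL-AF9 leukemia it read 5.6, 8.62 and 8.38 on the Rictor-deleted arrays, against 7.61, 12.3 and 10.8 on the control arrays (-0.15 ± 0.07, adjusted p = 0.22). The MLL-AF9 means of 7.53 with Rictor deleted and 10.2 in controls lay near the minimum of 7.7 and the array medians of 8.16 to 8.36, so the MLL-AF9 response was read close to the floor of the arrays. The difference of the responses was 0.99 ± 0.15 (SE, adjusted p = 0.0032), with adjusted p between 0.00066 and 0.027 over the 23 alternatives that tested the gene. It is below the minimum when genes under the 60th percentile are left out. For Stard4, called in MLL-AF9 leukemia, the responses were 0.34 in MLL-NRIP3 and 0.56 in MLL-AF9 leukemia on the deposited scale. Their difference after quantile normalization was -0.21 ± 0.25 (95% interval -0.74 to 0.32, adjusted p = 0.7), which does not show that the models respond alike. Tm7sf2 (-0.55 ± 0.19), Pmvk (-0.56 ± 0.24), Nsdhl (-0.35 ± 0.15) and Ebp (0.26 ± 0.11) had an unadjusted p under 0.05 and adjusted p of 0.13, 0.21, 0.22 and 0.23. Ebp ranked 2239 by p, so at least 2239 of the 12573 genes were under 0.05 as well. Nsdhl and Ebp lie on the X chromosome, and the MLL-AF9 genotypes differ in sex, so sex and response cannot be told apart. Mbtps1, the protease that cleaves SREBP in the Golgi, was the 1 gene called among 13 other sterol and SREBP genes (0.49 ± 0.11, adjusted p = 0.023), and its mean was 312 ± 17 and 241 ± 1.07 on Rictor-deleted and control MLL-NRIP3 arrays and 230 ± 6.04 and 255 ± 19.4 on Rictor-deleted and control MLL-AF9 arrays (SD, n = 3 each). Of the other lists, 1 of 13 LXR and efflux genes (Cyp27a1, -1.35 ± 0.29, adjusted p = 0.02) and 3 of 33 other fatty acid and glycerolipid genes had a smaller response in MLL-NRIP3 leukemia, among them Dgat1 (-1.31 ± 0.24, adjusted p = 0.0083) and Agpat2 (-0.89 ± 0.15, adjusted p = 0.006). Etfa, an electron carrier of fatty acid oxidation, had a larger one (0.47 ± 0.12, adjusted p = 0.0496), as the 1 gene called of 23. Beside these, 12 of 13 neutrophil markers also had a smaller response, and so did Ighm of 6 B lineage markers (-2.79, adjusted p = 0.026). Larger responses were called for 4 of 10 monocyte and macrophage markers, for 2 of 6 mast cell, basophil and eosinophil markers, among them Cpa3 (2.91, adjusted p = 0.02), and for Kit (0.96, adjusted p = 0.041). The part of these markers was not tested. Without MLL-NRIP3 control arrays 1 and 2, Acss2 kept its call (0.85, adjusted p = 0.023) and 5 members had smaller responses in MLL-NRIP3 leukemia: Insig1, Hmgcs1, Msmo1, Idi1 and Sc5d, where all-gene calls were 317 larger and 402 smaller of 12573.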

How the data were processed

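Per the labels, K+G- bone marrow leukemia cells of 4 groups were measured on 12 Affymetrix arrays, 3 a group, from 7 µg of total RNA per array. The authors deposited a linear intensity for each probe set on every array, and how they summarised and normalized it was not given in the sources used here. Precision is limited by the number of arrays. Groups and replicate numbers come from the sample titles.

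Of 45101 probe sets, 34958 had 1 gene symbol in the platform annotation, 932 several and 9211 none. The brightest probe set stood for a gene, as log2(intensity + 16) of the deposited or quantile-normalized value, and genes with a mean under 7.7 were left out. Genotypes were compared within each model on the deposited values of its own 6 arrays; models, and their responses, on all 12 arrays after quantile normalization. Fits used limma 3.58.1 in R 4.3.3 (trend), 2-sided, with Benjamini-Hochberg adjustment over 12573 genes and calls at an adjusted p under 0.05, and the code was tested on simulated data. With 3 arrays a group, the smallest p of an exact permutation test is 0.1, so none was run.

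The members, lists, tests and alternatives were chosen with earlier results of these data known. All members were to be named, with values on each array where called or separate within a model, and of other lists up to 4 called genes with the smallest p. Promoters are from RefSeq (GRCm38.p6); motifs and figures used Python 3.11.15, pandas 2.3.3 and matplotlib 3.10.9. Alternatives were other scalings, pseudocounts, minimums, probe set summaries and moderation, array weights, a threshold of 0.10, a replicate block, and omission of arrays.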

Additional observations from a re-analysis of the deposited data

Results flagged for a closer look

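Acss2, which makes acetyl-CoA from acetate, responded to Rictor deletion differently in the models: MLL-NRIP3 minus MLL-AF9 was 0.99 ± 0.15 on the log2 scale (SE, limma adjusted p = 0.0032), with a response of 0.83 in MLL-NRIP3 and -0.15 in MLL-AF9 leukemia. It is given here because the difference between the responses passed the test. The value was 0.48 (adjusted p = 0.027) with the mean of its probe sets. Its deposited mean in MLL-AF9 leukemia was 7.53 with Rictor deleted and 10.2 in controls, near the minimum of 7.7, so the MLL-AF9 response was read close to the floor of the arrays.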

How the results depend on the processing

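Between the models, the count of members called was 16 to 21 with Rictor deleted and 19 to 25 in controls when 1 array was left out, and 19 to 30 and 20 to 28 under the other alternatives. Of the members called, 14 of 20 and 17 of 22 kept their call under all of them; those that did not were Hmgcs1, Msmo1, Mvk, Scap, Scd2 and Srebf1 with Rictor deleted and Acaca, Ebp, Fdft1, Hmgcs1 and Scd2 in controls. Directions turned on the deposited values for Ebp (0.46 with Rictor deleted, 0.22 in controls), Elovl5 (0.38 and 0.40), Fdps (0.28 and 0.26, not called) and Fads2 in controls (0.08, not called), where the median of all genes is itself shifted. Median centring also turned Ebp with Rictor deleted (0.16) and Elovl5 (0.07 and 0.10), none of them called.

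For Rictor deletion in MLL-AF9 leukemia, 1 member was called, with 2 under quantile normalization, the 60th percentile, the mean of probe sets and an adjusted p under 0.10 (Stard4 and Idi1), 2 with the replicate block (Stard4, and Acss2 lower), 0 in 1 fit of all 12 arrays, and 1 to 2 leaving out 1 array. All-gene calls were 1039, against 176 in that fit, 1578 at 0.10, and 582 and 661 without Rictor-deleted array 2 or 3. In MLL-NRIP3 leukemia 1 member was called, with 2 in 1 fit of all 12 arrays (Srebf2 lower, whose other probe set went up by 0.15), 0 with the 60th percentile (Acss2 not tested), the mean of probe sets, the replicate block (Acss2 adjusted p = 0.059) or without control arrays 1 and 2, and 0 to 2 leaving out 1 array. All-gene calls here were 192, against 1734 in 1 fit of all arrays, 82 with the mean of probe sets, 467 at 0.10, 27 without control arrays 1 and 2, 30 to 72 without control array 1, control array 2, Rictor-deleted array 1 or Rictor-deleted array 2, and 862 without control array 3. The difference of responses called 1 member, with 5 under array weights (Ebp, Sqle, Hsd17b7, Acss2 and Fads2), 0 with the 60th percentile, 6 without control arrays 1 and 2, where Idi1 (-0.67) and Sc5d (-0.75) turned, and 1 to 2 leaving out 1 array; all-gene calls were 615, against 2217 under array weights, 1080 at 0.10, 329 to 377 without any 1 MLL-AF9 array, and 1561 without MLL-NRIP3 control array 3. The cause of these changes was not tested.

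Replicate numbers did not pair the arrays: deviations of same-numbered arrays correlated at -0.10, -0.05 and 0.02 in MLL-AF9 and at 0.06, -0.14 and -0.05 in MLL-NRIP3 leukemia. The replicate block gave 2, 0 and 1 members called in MLL-AF9, MLL-NRIP3 and the difference of responses, and 960, 163 and 491 genes.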
